A study of Mus musculus with 4 samples.

Results

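Wide Rad21 regions are stretches of the genome where the cohesin subunit Rad21 was called over at least 900 bp in each of 4 chromatin immunoprecipitation (ChIP-seq) libraries. Peaks of the 4 lists on chromosomes 1 to 19 were merged where they touched or overlapped, and the widths of a library's peaks in a merged region were added up. Of 33900 merged regions, 14184 held a peak in every library, and 486 of these (3.43%, Wilson interval 3.14 to 3.74%) were at least 900 bp wide in all 4. The other 13698 shared regions, some of them wide in up to 3 libraries, are the comparison set. The libraries came from mouse pro-B cell lines transformed with v-Abl, 2 labelled wild type (WT) and 2 labelled 53BP1 knockout. All 4 lacked RAG1, carried the Emu-Bcl2 transgene and received 3 uM of the kinase inhibitor STI-571 over 4 days before fixation. The labels do not give the number of clones or cultures behind the libraries, so the spread between duplicates may be technical.

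Cohesin is a ring-shaped complex that extrudes chromatin loops, and Rad21 is the subunit that closes the ring. It is best known for short, sharp sites where the DNA-binding protein CTCF stops it, and it is also found more diffusely at active promoters and enhancers, where its loader works. 53BP1 is a chromatin-bound protein that shields broken DNA ends during repair. The Emu enhancer drives the survival gene Bcl2 in B-lineage cells, which keeps them alive when the inhibitor arrests them. Titles and protocol give Rad21 as the target, whereas a treatment field in the labels lists an antibody to 53BP1. Nothing in the lists measures 53BP1, and the genotypes are taken as labelled.

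The autosomal lists held 21478 to 24570 peaks, and their read depth is unknown. The second knockout library stood apart in width: 24.7% of the shared regions were at least 900 bp wide in it, against 17.9% and 16.4% in the WT libraries and 14.4% in the first knockout library. Its median width over all shared regions was 658 bp, against 597, 596.5 and 570 bp in the same order. Widths are therefore compared between genotypes after division by the library's median width over the other shared regions.

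The wide regions were about 2 times as long as the other shared regions in every library, as the rule required. Their median width was 1200.5 and 1177.5 bp in the first and second WT libraries and 1190 and 1270.5 bp in the knockout libraries. In the other shared regions it was 584, 585, 560 and 643 bp. The ratio of these medians was 2.06, 2.01, 2.13 and 1.98, so the second knockout library, which had the longest wide regions in bp, had the shortest relative to its other regions. Many members lay close to the threshold: in 198 of 486 (40.7%) the narrowest library measured under 1000 bp. The narrowest library reached 1200 bp in 112 members, 1500 bp in 27 and 2000 bp in 4.

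**Figure D1:**
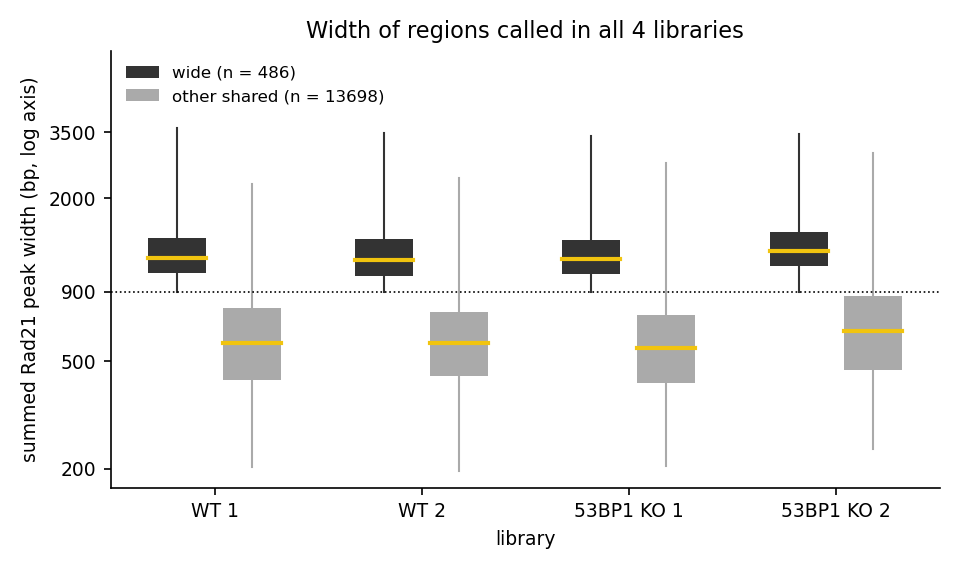
Summed Rad21 peak width in bp (log axis) in the 486 wide and the 13698 other shared regions, by library. Boxes span the quartiles, yellow lines are medians, thin lines run from the lowest to the highest region, and the dotted line is the 900 bp threshold. Medians of the wide regions run from 1177.5 to 1270.5 bp, and some other shared regions also exceed 900 bp in single libraries.

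The regions nearest the threshold exceeded 900 bp by a wide margin in some libraries and met or missed it narrowly in others. Just inside lay chromosome 19 at 41090150 to 41091396, with widths of 1022 and 1067 bp in the WT and 900 and 1247 bp in the knockout libraries. Next was chromosome 14 at 72070051 to 72071144 (1085 and 911 bp, then 901 and 1036 bp), and then chromosome 3 at 53538584 to 53540033 (902 and 1008 bp, then 1450 and 1062 bp). Just outside lay chromosome 19 at 29429309 to 29430851, with 1518 and 1026 bp in the WT and 1069 and 899 bp in the knockout libraries. The next outside was chromosome 11 at 101255845 to 101257333 (1489 and 1009 bp, then 898 and 930 bp), and then chromosome 19 at 25407893 to 25409492 (898 and 1280 bp, then 1412 and 1494 bp). A single library a few bp above or below 900 bp decided membership for these regions.

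In 429 of the 486 members (88.3%) each library called 1 unbroken peak. In 57 members (11.7%) some library called several peaks, against 1.45% of the other shared regions, and in 1 member every library did. In 437 members the longest single peak alone reached 900 bp in all 4 lists. Most wide regions were thus long single peaks, though several peaks were more frequent in them than in the other shared regions. The rule adds up the widths of several peaks, so this contrast is tied to the choice. The span from the leftmost to the rightmost end over all libraries had a median of 1542 bp and reached from 1026 to 5437 bp. Among the 429, the part covered by every library had a median length of 955 bp, or 67.0% of the span, and it was at least 900 bp in 279 (65.0%).

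The outer ends of the regions moved between libraries by a similar distance whatever the width. The median distance between the outermost and innermost call was 230 bp at the left end and 217 bp at the right end of single-peak members, and 225 and 222 bp in the other shared regions with 1 peak per library. Both ends fell within 100 bp in all 4 libraries in 17 members (3.96%) and in 3.29% of the others. The overlap of the peaks of 2 libraries, as shared over combined length, had medians of 0.813 to 0.845 in members over the 6 library pairs. It was 0.827 between the WT libraries, 0.830 between the knockout libraries and 0.813 to 0.845 between genotypes, so pairs of the same genotype lay inside the range of mixed pairs.

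Enrichment and significance of the wide regions went in opposite directions. The fold enrichment and −log10 q of a peak are the authors' values, and in the broad layout of their caller both are averages over the peak's length. The strongest peak of a member had a median fold of 3.93 and 3.99 in the WT and 4.29 and 3.51 in the knockout lists. In the other shared regions the medians were 4.34, 4.34, 4.60 and 3.82. The wide regions were lower in each of the 4 lists, by a ratio of 0.906 and 0.919 in the WT and 0.933 and 0.921 in the knockout lists. Their median −log10 q, the authors' significance per peak, was 5.00 and 5.31 in the WT and 5.39 and 4.31 in the knockout lists, against 4.20, 4.39, 4.43 and 3.44 in the other shared regions. It was higher in the wide regions by 0.808, 0.923, 0.955 and 0.869. These are descriptions, since width, fold and significance come from the same calls.

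The fold first rose and then fell with width. In the list of the first WT library, the median percentile of fold was 48.6 in the 3070 shared regions whose narrowest library measured under 300 bp. It was 69.2 in the 1428 regions of 600 to 699 bp, 49.4 in the 198 members of 900 to 999 bp and 17.1 in the 27 members of at least 1500 bp. The other lists followed the same course, with 24.1, 31.6 and 16.7 in the widest class for the second WT and the 2 knockout lists. The percentile of −log10 q fell less. It was highest at 700 to 799 bp, with 81.7, 83.9, 83.3 and 80.4 in the order of the libraries. Every class of members was lower than that in each list, and the widest class had 73.6, 66.4, 80.5 and 79.2. Against shared regions of 700 to 799 bp, members were thus lower in both fold and significance. Among members, 140 (28.8%) lay below the median fold of every list, against 11.1% of the other shared regions. Only 6 members (1.23%) lay in the top 10% by fold of every list, against 2.82% of the others. A −log10 q of at least 5 in all 4 lists was found in 126 members (25.9%) and in 16.1% of the other shared regions.

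**Figure D2:**
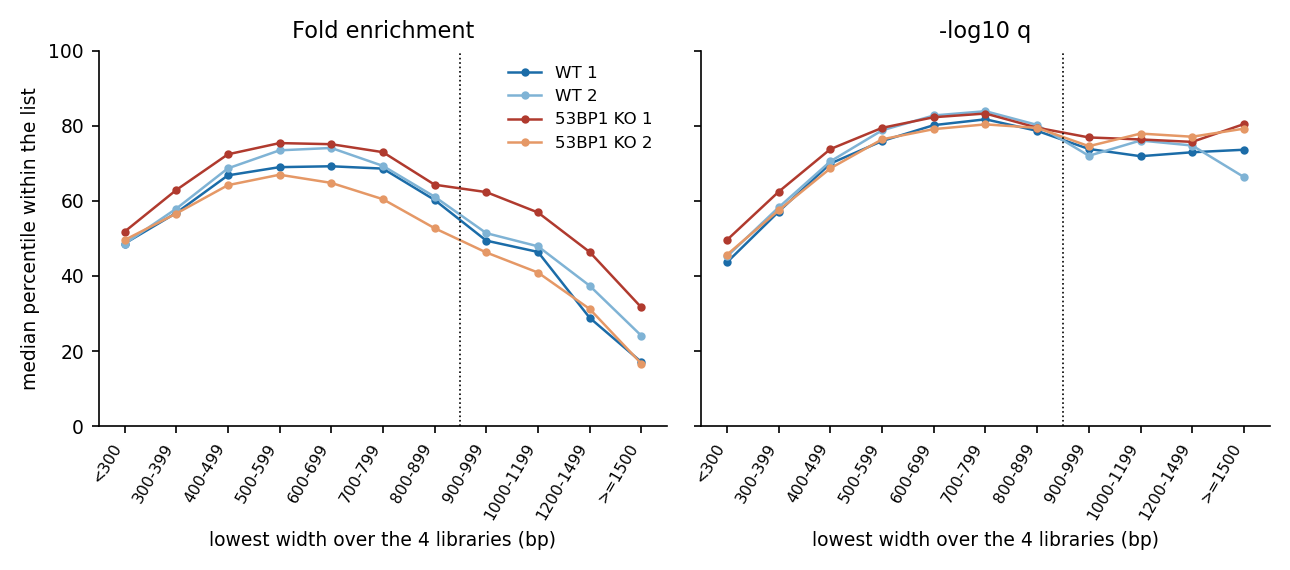
Median percentile within the library's own list of fold enrichment (left) and −log10 q (right), for shared regions grouped by the lowest of their 4 widths in bp, with 1 line per library and a dotted line at the 900 bp threshold. Fold percentiles are highest at intermediate widths and fall to 16.7 to 31.6 in the widest class, where −log10 q percentiles are 66.4 to 80.5.

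The widest members were low in fold. By the narrowest of its 4 widths, the first was chromosome 17 at 39980021 to 39985457, with 3622 and 2919 bp in the WT and 2803 and 3446 bp in the knockout libraries. Its fold was 2.70, 2.46, 2.72 and 2.93, and its signal was broken into 3 peaks in both WT lists and in the first knockout list and into 2 in the second. WT and knockout widths in bp alternated from the longest to the shortest, so the groups overlapped, as they did after scaling. The second, chromosome 2 at 27090975 to 27093336, was 1 peak of 2207 and 2362 bp in the WT and 2287 and 2312 bp in the knockout libraries, with a fold of 2.74 to 3.503. The third and the fourth lay beside each other at the start of chromosome 9 and are described with their neighbours. The fifth, chromosome 12 at 60136424 to 60139941, measured 1976 bp in the first WT library, where it was split into 2 peaks, and 3467, 3379 and 3423 bp in the other libraries. Only the first WT library was low there.

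Further down the list, chromosome 15 at 84530478 to 84532771 measured 2244 and 2262 bp in the WT and 2065 and 1845 bp in the knockout libraries. Both knockout values lay below both WT values, in bp and after scaling. Chromosome 14 at 27842857 to 27844869 measured 1858 and 1893 bp in the WT and 1726 and 1924 bp in the knockout libraries. Chromosome 17 at 29649922 to 29652221 measured 2300 and 1711 bp, then 1848 and 1958 bp. Chromosome 13 at 112657115 to 112659124 measured 1686 and 2006 bp, then 1739 and 1821 bp. In bp the genotypes overlapped in these 3 regions. After scaling, the region on chromosome 14 was 3.18 and 3.24 times the median of the other shared regions in the WT and 3.08 and 2.99 times in the knockout libraries, so both knockout values were lower there. The remaining member among the first 10, on chromosome 18, measured 1886 and 1813 bp in the WT and 1854 and 1714 bp in the knockout libraries. No gene is assigned to any region, since no mm9 annotation was used here, and no sequence is shown for the same reason.

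**Figure D3:**
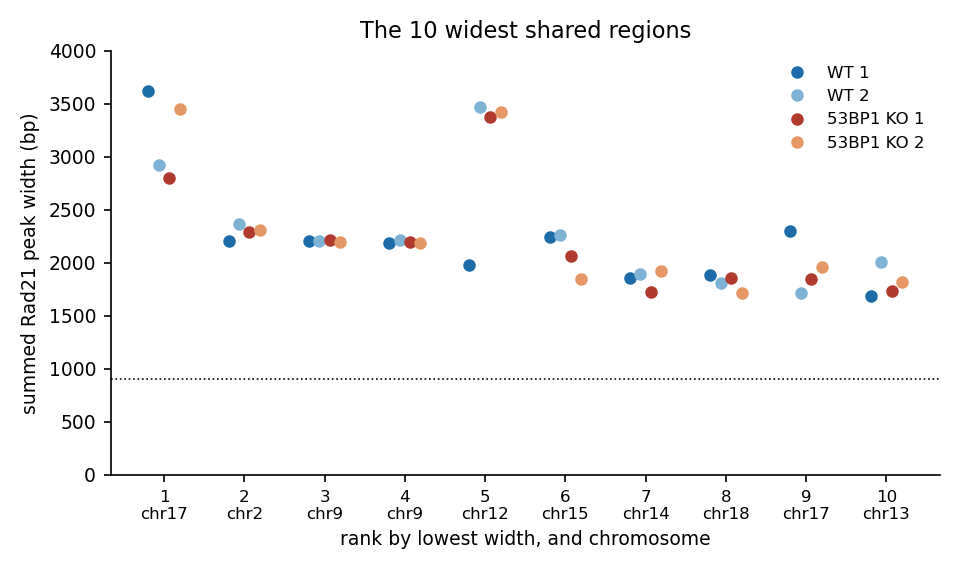
Summed Rad21 peak width in bp of the 10 members with the highest lowest-width, 1 point per library, with the chromosome under each rank and a dotted line at 900 bp. The 4 points of the third and the fourth, at the start of chromosome 9, run from 2198 to 2213 and from 2183 to 2220 bp, while those of the first run from 2803 to 3622 bp and those of the fifth from 1976 to 3467 bp.

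The densest run of wide regions lay at the start of chromosome 9, where 6 members fell between 3000123 and 3032741. The 4 lists held their first peak of that chromosome at 3000123 to 3000155. The member at 3000123 to 3002354 measured 2189 and 2220 bp in the WT and 2201 and 2183 bp in the knockout libraries, and the one at 3012180 to 3014396 measured 2208 and 2208 bp, then 2213 and 2198 bp. At 3023393 to 3024678 the widths were 1262, 1253, 1273 and 1281 bp. Widths there were nearly the same in all libraries, and 4 of the 6 were among the 17 members whose ends agreed within 100 bp. Of the others, the member at 3016935 to 3018713 measured 1168 bp in the second WT library, where it was split into 2 peaks, and 1737, 1743 and 1755 bp elsewhere. The member at 3003046 to 3004790 measured 1744 bp in the second WT library and 1498, 1516 and 1531 bp in the others.

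All 6 combined a low fold with a high significance. The member at 3012180 had a fold of 2.49 and 2.398 in the WT and 2.47 and 2.54 in the knockout lists, with a −log10 q of 23.0, 22.2, 20.6 and 25.0. The member at 3023393 had a fold of 2.82, 2.75, 2.95 and 3.04, with a −log10 q of 38.6, 38.4, 40.8 and 45.1. A fold in the lowest 10% and a −log10 q in the highest 10% of every list occurred in 6 of the 486 members, the same 6, and in 4 of the 13698 other shared regions. Another member of very high significance was chromosome 2 at 98506389 to 98507499, with widths of 1082, 1079, 1084 and 1111 bp, folds of 5.60, 5.54, 5.60 and 5.45 and a −log10 q of 109.8, 108.9, 108.0 and 118.0. Satellite repeats in mouse assemblies are known to collect reads from many copies. No repeat annotation of mm9 was used here, and whether these members lie on such repeats was not tested. These 7 members and their properties were picked out after their values were seen.

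Members of high fold formed a different group. The highest by the lowest of its 4 within-list percentiles was chromosome 16 at 3122279 to 3123589, whose folds were 7.18 and 6.54 in the WT and 7.45 and 6.36 in the knockout lists and widths of 1125, 1282, 1061 and 1082 bp. Next was chromosome 15 at 74915994 to 74917492, with folds of 6.53, 5.69, 6.99 and 6.11 and widths of 1354, 1480, 1347 and 1447 bp. Chromosome 9 at 7594785 to 7595933 had folds of 5.65, 5.81, 6.07 and 4.72. The remaining pair of the first 5 lay in the window of the Igl locus on chromosome 16. None of the 5 was among the 10 widest members. By the highest of its 4 within-list percentiles, the member of lowest fold was chromosome 10 at 7232587 to 7233879. Its folds were 2.30, 2.34, 2.196 and 2.10, with a −log10 q of 4.22, 3.37, 4.22 and 4.55 and widths of 1277, 1247, 1251 and 1263 bp. In the second WT list the member on chromosome 9 at 3003046 was lower, with a fold of 2.187. In all, 8 members had a fold under 3 in every list, and 4 of these belonged to the run on chromosome 9.

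Width was then read in a library that had no part in the choice. For each library in turn, peaks of the other 3 were merged without it, regions at least 900 bp wide in all 3 were taken, and the width of the peaks that the library left out listed there was added up. Of 640 regions chosen without the first WT library, 481 (75.2%, Wilson interval 71.7 to 78.3%) were at least 900 bp wide in it. The shares were 68.7% of 702 (65.1 to 72.0%) in the second WT library, 69.9% of 690 (66.3 to 73.2%) in the first knockout library and 79.4% of 602 (76.0 to 82.4%) in the second. Regions called in the other 3 libraries and under 900 bp in each were wide in the one left out in 7.99% (first WT), 7.39% (second WT), 5.33% (first knockout) and 13.1% (second knockout) of cases. Regions wide in 3 libraries were thus wide in the one left out 6.05 to 13.1 times as often as regions narrow in 3. The library left out had no peak in 2 to 6 of the wide regions (0.290 to 0.997%) and in 7.60 to 14.1% of the narrow ones. These intervals treat regions as independent and cover counting error only.

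The second knockout library, in which 24.7% of all shared regions were wide, had the highest share of both kinds. The shares of regions wide in the others did not follow general width throughout. The first knockout library, with 14.4% of shared regions wide, had 69.9%, and the second WT library, with 16.4%, had 68.7%. The mean share of wide regions was 71.9% over the WT and 74.6% over the knockout libraries, a difference of 2.72 percentage points. Knockout minus WT was −5.30 points between the libraries of replicate 1 and 10.7 points between those of replicate 2, so the direction differed between the pairs whose peak names share a prefix in the lists. When regions had to be called in all 4 libraries, the count found wide was the 486 members each time. The difference was then 2.78 points, which restates the rule and is given without a test, and it was −6.23 points with regions built anew without the second knockout library.

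**Figure D4:**
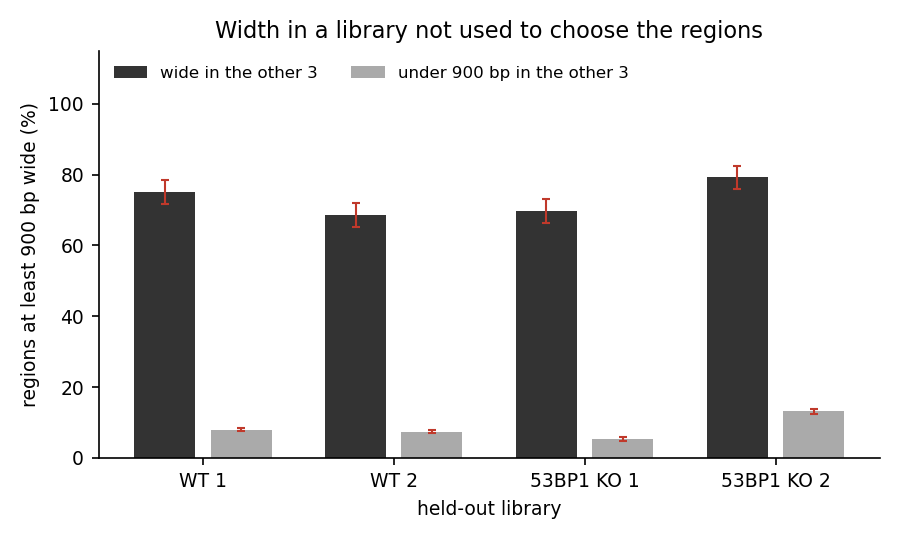
Percentage of regions at least 900 bp wide in the library left out of the merging and the choice, for regions wide in the other 3 libraries (dark) and regions under 900 bp in the other 3 (grey), with 95% Wilson intervals as bars. Dark bars run from 68.7 to 79.4% and grey bars from 5.33 to 13.1%, and the second knockout library is highest in both.

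In most shared regions that were wide anywhere, the width was not repeated. A width of at least 900 bp was found in no library in 8127 shared regions, in 1 library in 3374, in 2 in 1503, in 3 in 694 and in all 4 in 486. The second knockout library alone was wide in 1428 regions, against 766 and 692 for either WT library alone and 488 for the first knockout library alone. The knockout pair alone was wide in 303 regions and the WT pair alone in 215. The mixed pairs gave 379, 325, 156 and 125, so both genotype pairs lay inside the range of mixed pairs.

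Between genotypes, widths of the members separated about as often as those of all shared regions. After scaling, both knockout widths exceeded both WT widths in 78 of 486 members (16.0%), against 17.0% of all 14184 shared regions. They lay below both in 81 members (16.7%), against 17.3%. Without scaling the counts were 100 and 66, against 18.0% and 15.2% of all shared regions, and with the members' own median as the scale 73 and 92, against 16.0% and 18.2%. The direction of the balance thus follows the scale. The median log2 ratio of knockout to WT width was −0.01 over members, and 90% of members lay between −0.40 and 0.41. The other shared regions spread more widely, with 90% between −0.84 and 0.86. The typical difference between 2 libraries, after removal of their median difference, was 1.12-fold between the WT libraries, 1.13-fold between the knockout libraries and 1.11- to 1.16-fold between genotypes. In the other shared regions it was 1.30- to 1.35-fold. The rule keeps members at 900 bp or more in every library, so their smaller spread by both measures is tied to the choice.

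Of the 78 members that were wider in the knockout, 7 differed by at least 1.5 times in mean scaled width. A further 2 members whose widths overlapped between genotypes also differed by that much. Of these, 1 was wider (log2 ratio 0.61) and 1 narrower (log2 ratio −0.59) in the knockout. The share over all shared regions is not given, in this or the other direction. Regions are named by the gap between the narrower knockout and the wider WT library on the scaled widths. The largest such gap was on chromosome 5 at 136520906 to 136522881, with 1033 and 955 bp in the WT and 1594 and 1938 bp in the knockout libraries. Chromosome 13 at 12197806 to 12199747, with the largest ratio of mean scaled widths (log2 0.80, against 0.78 for the region before), measured 1052 and 963 bp in WT, in 2 peaks each, and 1832 and 1745 bp in knockout libraries, in 1 peak each. Chromosome 6 at 48595503 to 48597450 had the same form, with 1166 and 1063 bp in 2 peaks and 1828 and 1790 bp in 1 peak. In both of these regions the WT lists held a gap that neither knockout list had. Chromosome 5 at 92933759 to 92935719 measured 934 and 1275 bp in the WT and 1626 and 1955 bp in the knockout libraries. Chromosome 5 held 7.94% of the autosomal peaks of the second knockout list, against 6.42% and 6.36% in the WT lists and 6.33% in the first knockout list. Without chromosomes 5 and 10, where that list was also larger, 68 of 419 members were wider and 67 narrower in the knockout. The share over all shared regions was not computed without these chromosomes. The other of the 5 largest gaps, on chromosome 18, was at 1628 and 1685 bp for WT and 2091 and 2438 bp for the knockout, a log2 ratio of mean scaled widths of 0.41. Of the 7 members that differed by at least 1.5 times, 3 were not among the 5 largest gaps. They lay on chromosome 10 at 19411751 (log2 0.67), chromosome 9 at 83170509 (0.62) and chromosome 7 at 26264299 (0.61). The folds at the first of these regions, on chromosome 5 at 136520906, were 3.79, 3.52, 3.82 and 3.39, so they overlapped between genotypes.

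Of the 81 members that were narrower in the knockout, 6 differed by at least 1.5 times. By the gap between the wider knockout and the narrower WT library, the first was on chromosome 1 at 90183174 to 90185628, with 1882 and 1841 bp in the WT and 945 and 1168 bp in the knockout libraries and folds of 3.05, 2.95, 3.73 and 2.91. Chromosome 2 at 122492005 to 122494011 measured 1978 and 1983 bp in WT, as 1 peak, and 1284 and 1232 bp in knockout libraries, as 2 peaks. Chromosome 17 at 8581240 to 8582983 showed the same split, with 1401 and 1537 bp against 980 and 1025 bp. Chromosome 8 at 129005373 to 129007373 measured 1792 and 1947 bp against 1050 and 1397 bp, and chromosome 15 at 34820352 to 34822063 measured 1576 and 1662 bp against 1083 and 1033 bp. Both directions therefore held regions with an unbroken peak in both lists of a genotype and a broken peak in both lists of the other. Among the 78 wider members, 3 had more peaks in both WT lists, and among the 81 narrower members, 2 had more in both knockout lists. Of the 327 members that did not separate, 1 had more peaks in both WT lists and 0 had more in both knockout lists. A gap between peaks lowers the summed width, so the link to the narrower genotype is tied to the width measure. The share over all shared regions is not given. No p was computed per region, since 2 libraries per group do not allow one to pass a threshold.

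The fold of the wide regions was also set against the other shared regions of the same list, separately in each library. The ratio of median folds, wide over other shared regions, was 0.913 ± 0.00912 in WT and 0.927 ± 0.00819 in knockout libraries (mean ± SD, n = 2 each), a difference of 0.0143. Both knockout values lay above both WT values, and the two-sided exact permutation test gave p = 0.33, the lowest possible. The difference was 0.0265 within replicate 1 and 0.00204 within replicate 2. It was 0.000640 without the first knockout library and 0.00252 without the first WT library, with regions chosen anew in the remaining 3 libraries. With a threshold of 700 bp it was −0.00869.

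Wide regions were spread over all autosomes. They made up 1.83% of the shared regions on chromosome 16, the lowest share, and 4.31% on chromosome 2, the highest. The Wilson interval held the overall 3.43% on 18 of 19 chromosomes, the exception being chromosome 16 with 10 of 545 (interval 1.00 to 3.34%). Chromosome 12 carried 29 of 675 (4.30%) and chromosome 19 carried 22 of 530 (4.15%). These intervals treat regions as independent and were not adjusted over the 19 chromosomes. On chromosome X, outside the rule, 2 of 300 shared regions (0.667%, Wilson interval 0.183 to 2.398%) met the same width: 139492908 to 139494087, with 962, 991, 946 and 1111 bp, and 156063790 to 156066334, with 1443, 1238, 1620 and 1307 bp.

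**Figure D5:**
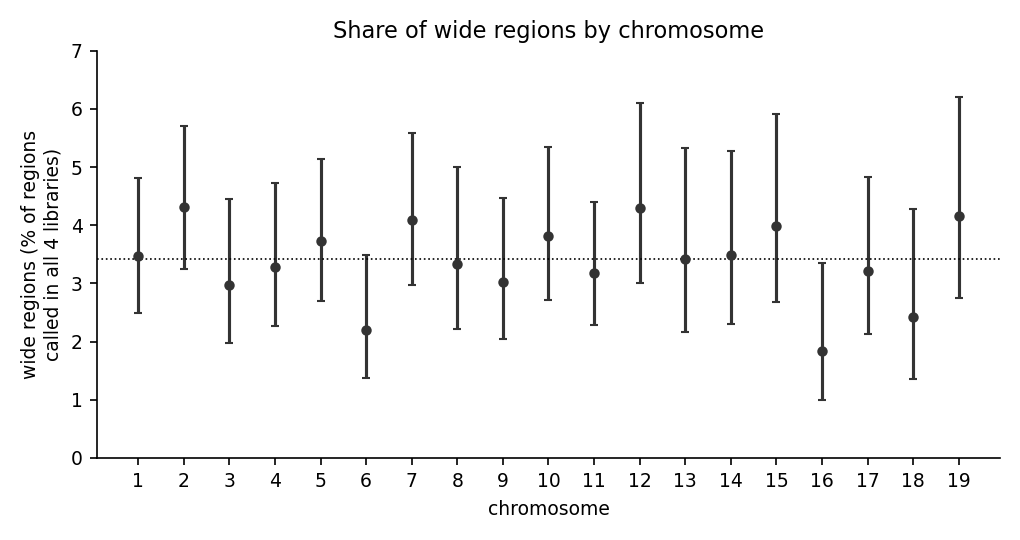
Wide regions as a percentage of the regions called in all 4 libraries, by chromosome, with 95% Wilson intervals and a dotted line at the autosomal 3.43%. The interval of chromosome 16 alone lies below the line.

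Most wide regions had no other wide region close by. Another member was found within 50 kb of 31 of the 486 (6.38%), within 100 kb of 37 (7.61%) and within 200 kb of 78 (16.0%). A member lay within these distances of 4.26%, 8.07% and 15.5% of the other shared regions, so members had the higher share at 50 and 200 kb and the lower at 100 kb. Without the 6 members at the start of chromosome 9 the share within 100 kb was 6.46%. The median distance from a member to the next member was 1158 kb, and from another shared region to a member 1120 kb. After the run on chromosome 9, the largest group was on chromosome 5, where 3 members lay between 121054646 and 121099785. Their widths in WT then knockout libraries were 1721, 1520, 1626 and 1699 bp, 1195, 1099, 1057 and 2327 bp, and 950, 1011, 1038 and 956 bp. The second of these was long in the second knockout library alone. A further 14 groups were pairs, the closest on chromosome 12 between 94120156 and 94131069, and the remaining 449 members had no other member within 100 kb.

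The surroundings of wide regions held on average somewhat more Rad21 regions than those of the others. Within 100 kb a member had a median of 6 merged regions and a mean of 6.26, against 5 and 5.66 for the other shared regions. The means were 3.21 against 2.81 within 50 kb and 12.0 against 11.0 within 200 kb. At these distances the medians were equal in members and others, with 3 within 50 kb and 11 within 200 kb. The nearest shared region was at a median of 25.9 kb from a member and 31.0 kb from another shared region. These values are descriptions over positions, which are not replicates.

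In the antigen receptor loci, where cohesin-driven loops bring gene segments together for V(D)J recombination, approximate mm9 windows of the 6 loci held 4 wide among 199 shared regions. This is 2.01% (Wilson interval 0.784 to 5.05%), an interval that holds the 3.43% of all shared regions. The Igh window held 1 among 80, at chromosome 12 from 114458264 to 114461456, with 1516 and 1873 bp in the WT and 3014 and 2116 bp in the knockout libraries and folds of only 2.84, 2.41, 2.54 and 2.43. It was called as 1 peak in the first knockout list and as 2 in each other list. The Igk window held 0 among 58 shared regions. The Igl window held 2 among 8, at chromosome 16 from 19146145 to 19147486 (1091, 977, 1027 and 1342 bp) and, at the edge of the window, from 19002690 to 19003809 (994, 1001, 981 and 1120 bp). Their folds of 5.96, 6.13, 6.12 and 4.97 and of 5.92, 6.11, 6.06 and 4.70 were among the 5 highest-ranked of all members. The window of Tcra and Tcrd held 1 among 42, at its edge on chromosome 14 from 54847249 to 54848608, with 1321, 1010, 1278 and 1065 bp. Tcrb held 0 among 7 and Tcrg 0 among 4.

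Windows of 8 other known loci held 2 wide among 121 shared regions, or 1.65% (Wilson interval 0.454 to 5.83%, which also holds 3.43%). Around Myc, a proto-oncogene with distant blood-cell enhancers, 1 of 12 shared regions was wide, at chromosome 15 from 63572233 to 63573325, with 954, 975, 1048 and 947 bp and folds of 5.65, 4.15, 5.94 and 4.46. The major histocompatibility complex held 1 of 79, at chromosome 17 from 35157594 to 35159156, with 1222, 1052, 1083 and 1368 bp. The Hox clusters A, B and D, the clustered protocadherins and the Hist1 histone genes held 0 among 2, 7, 2, 7 and 12 shared regions, and the Hox C window held no shared region.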

How the data were processed

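The data were 4 lists of broad Rad21 peaks, 1 per library, with positions in mm9. Per the submitters' processing notes, the tools were Bowtie2 2.4.4, SAMtools 1.15.1, deepTools 3.5.1 and MACS2 2.2.7.1. Neither their parameters nor a control library is named in those notes. The authors' deposited fold enrichment is a ratio per peak, and the deposited −log10 p and −log10 q are the caller's significance. The deposited score repeats the −log10 q and was not used. The files give no read counts, so depth is unknown, and a weaker library can list shorter or fewer peaks for that reason alone.

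Regions were built with Python 3.11.15, pandas 2.3.3, numpy 2.4.6 and scipy 1.17.1. A region's fold and −log10 q in a library are those of its strongest peak there. A percentile is the share of that list's autosomal peaks with a lower value. Coordinates are 1-based. Groups and replicate numbers come from the sample titles. Locus windows were set from background knowledge of mm9, with no annotation. The merging and the width rule were tested on simulated lists. Across regions, differences between the duplicates correlated between genotypes with r = 0.01 in members, so the replicate numbers were not treated as pairing the libraries. Described by rule were the 10 widest members, those nearest the threshold, 5 at either extreme of fold, 5 per direction between genotypes, members in the named loci and the densest groups. Members, loci and rules were chosen with earlier results of these data known. Genes and sequences were not analysed here, since no mm9 genome or annotation was used.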

Additional observations from a re-analysis of the deposited data

How the results depend on the processing

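Width depends on read depth and on the caller's settings, and neither is known for these lists. The number of wide regions was 484 with an equal number of peaks taken per list, 437 by the longest single peak, 419 without chromosomes 5 and 10 and 490 with a threshold scaled to each library, the last chosen after seeing the data, like the run without the 6 members of chromosome 9 and the choice in 3 libraries alone.

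Other thresholds and filters change the number of regions by construction. At 700 bp there were 1563 wide regions (11.0% of shared), 257 wider and 255 narrower in the knockout, 27.0% with a wide neighbour and a difference of the fold ratio of −0.00869, the reverse of the reported sign, for which the cause was not tested. At 1200 bp there were 112 (0.790%), 8 wider and 17 narrower, and 3.57% with a wide neighbour. With only peaks reaching a −log10 q of 5 there were 116 (4.98%), 20 wider and 16 narrower. The share of all shared regions that were wider or narrower was not computed under these settings. By the longest single peak the share was 3.08%. Within 200 kb, 16.0% had a wide neighbour.

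In the replicate block, where knockout and WT were compared within each replicate number, 119 members were wider and 123 narrower. This condition is looser than non-overlap between the genotypes, so its counts cannot be lower. The share of all shared regions that met it was not computed. The averaged differences, 2.78 points of recovery and 0.0143 of the fold ratio, equal the unpaired ones by construction.

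Leaving out 1 library in turn, with regions chosen in the remaining 3, gave 602 to 702 wide regions (3.76 to 4.67% of shared) and 11.2 to 13.2% with a wide neighbour. It gave 180 to 259 wider and 152 to 336 narrower members. With 1 library left in a genotype, non-overlap is easier to meet than with 2 per genotype, so these counts are not comparable with the reported ones. The share of all shared regions that met it was not computed. The difference in recovery ran from −6.23 points without the second knockout library to 11.3 without the first (the cause was not tested), and that of the fold ratio from 0.000640 to 0.0185. Of 97 recomputed values, 34 counts or shares moved by over 1.5 times or beyond their Wilson interval, and 2 differences changed sign. The other differences kept their sign, some at a very different size, as the ranges show. With 2 libraries per group no test could pass 0.05 under any alternative.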
